A study of Mus musculus with 6 samples.

Results

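The genes described here are the fibroblast growth factor (FGF) receptors Fgfr1, Fgfr2 and Fgfr3, the brain ligands Fgf1, Fgf2 and Fgf9, and the Sprouty feedback inhibitors Spry1, Spry2 and Spry4. They were chosen by symbol and number 9 of 55471 genes in the authors' deposited table, and all 9 are among its 18603 tested genes. The choice was made with earlier results of the same comparison known, so the group differences of these 9 genes are a description and not a test. RNA was taken from mouse hippocampus 24 hours after an experimental stroke, in which the brain's blood supply is interrupted (cerebral ischemia) and then let back in (reperfusion). The 3 Visudyne samples came from wild-type mice given Visudyne, and the 3 Saline samples from wild-type mice given saline, with the same ischemia in both groups. Visudyne contains verteporfin, a photosensitizer, and serves in this series as the means of meningeal lymphatic ablation. The labels give no strain, sex or age, and do not say whether each sample was a separate animal, so the p-values may measure technical spread alone.

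FGFs are secreted proteins that bind receptor tyrosine kinases together with heparan sulfate, the sugar chains of proteoglycans on the cell surface. A bound receptor signals through docking proteins, Ras and the MAP kinases, and ETS transcription factors then switch on target genes. Those targets include the Sprouty genes, whose proteins damp the same kinase cascade and so close a negative feedback loop. In the brain Fgfr3 is known as a receptor of astrocytes, Fgfr2 is made by oligodendrocytes and astrocytes, and Fgfr1 is made by many neurons as well as glia.

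Fgfr3 had a positive value of about 1.63-fold and an adjusted p just inside the threshold of 0.05, a call that 2 other ways of adjusting end. The other 8 genes had 95% intervals that span no change, as have 92.4% of all tested genes with such an interval. The authors' deposited table does not say whether Visudyne or Saline is on top of its fold change. Signs are therefore given as deposited throughout, and no value here says whether the Visudyne or the Saline samples had more of an RNA. The deposited fold changes were shrunken toward 0, so that most read as almost no change whatever their size. Unshrunken log2 fold changes and their standard errors were recovered from the columns of the table, and these are the values given below unless the authors' deposited table is named. Per-library values were not analysed here, so each gene is described by its mean over the 6 libraries and its group difference with an error.

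The promoter windows of Fgfr3, the called gene, and of Spry2, the most abundant feedback inhibitor, are shown because both genes stood highest in RNA level among the 9. RefSeq (GRCm38.p6) gives windows of 300 bases, from 250 before to 50 after a gene's start, for 6 of the 9 genes, with 2 starts for Fgfr3. Sequences run 5′ to 3′ along the gene. Capitals mark matches, on either strand, to the GC box GGGCGG and the ETS core CCGGAA.
Fgfr3, first start, GRCm38.p6, chr5:33721474-33721773, plus strand: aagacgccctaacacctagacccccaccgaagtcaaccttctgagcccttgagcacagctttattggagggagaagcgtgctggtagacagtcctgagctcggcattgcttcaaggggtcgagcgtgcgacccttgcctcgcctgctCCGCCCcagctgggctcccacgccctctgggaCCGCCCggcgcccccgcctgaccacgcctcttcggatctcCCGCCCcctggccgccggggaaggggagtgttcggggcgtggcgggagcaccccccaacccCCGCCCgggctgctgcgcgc
Fgfr3, second start, GRCm38.p6, chr5:33722056-33722355, plus strand: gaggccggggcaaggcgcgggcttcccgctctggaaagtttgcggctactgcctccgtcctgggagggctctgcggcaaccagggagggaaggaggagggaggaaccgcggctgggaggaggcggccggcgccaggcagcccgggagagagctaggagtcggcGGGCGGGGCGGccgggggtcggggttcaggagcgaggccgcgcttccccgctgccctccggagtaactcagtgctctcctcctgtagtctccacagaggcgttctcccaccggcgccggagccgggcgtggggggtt
Spry2, GRCm38.p6, chr14:105896770-105897069, minus strand: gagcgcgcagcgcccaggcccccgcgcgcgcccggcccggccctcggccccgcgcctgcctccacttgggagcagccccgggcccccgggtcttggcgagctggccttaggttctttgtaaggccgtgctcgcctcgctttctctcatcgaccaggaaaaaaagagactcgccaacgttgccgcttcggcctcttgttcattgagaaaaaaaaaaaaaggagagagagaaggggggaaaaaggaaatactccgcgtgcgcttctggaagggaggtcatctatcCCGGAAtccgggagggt

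The first Fgfr3 window holds 4 GC boxes and the second holds 2, which overlap each other by a base. GC boxes were present in 35.7% of all 32851 RefSeq windows of the same length. The ETS core occurs 1 time in the Spry2 window and in 14.9% of all windows, and it has no match in the other 6 windows of these genes. The GC content of the windows is 69.7% and 73.0% at the Fgfr3 starts and 62.7% at the Spry2 start, against a median of 52.7% over all windows. The windows of Fgf2 and Spry1 hold 1 GC box each, and those of Fgfr2 and Fgf9 hold none. No member window holds the cAMP response element TGACGTCA, the AP-1 motif TGANTCA or the TATAAA box, which occur in 1.79%, 7.81% and 13.6% of all windows. The E-box CACGTG occurs 1 time in the Fgfr2 window, against 7.15% of all windows. These matches describe letters in a window and not binding.

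Of the receptors, Fgfr3 had the most RNA and Fgfr2 the least. Per kilobase of exon, Fgfr3 averaged 464 normalized counts, Fgfr1 averaged 280 and Fgfr2 averaged 86.5 over the 6 libraries. Fgfr3 thus stood at the 85.6th percentile of tested genes by count per kilobase and 1.66 times as high as Fgfr1. Fgfr1 stood at the 77.4th percentile and Fgfr2 at the 51.7th, near the median of all tested genes, 80.4 normalized counts per kilobase. Lengths are the union of a gene's exons in GENCODE M21, so a gene with long rarely used exons reads lower than its main transcript.

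Among the ligands, Fgf1 was the most abundant, with 249 normalized counts per kilobase. Fgf1 lacks a classical secretion signal and is known in neurons. Fgf9, a secreted ligand made by neurons, averaged 113 normalized counts per kilobase. Fgf2, which astrocytes make and which also lacks a classical signal, was the lowest of the 9 genes at 30.4, the 32.3rd percentile of tested genes. Fgf1 was 8.18 times and Fgf9 3.72 times as high as Fgf2.

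Of the Sprouty genes, Spry2 averaged 421 normalized counts per kilobase, second of the 9 genes after Fgfr3. Spry1 averaged 98.9 and Spry4 averaged 60.2, so Spry2 was 4.26 times as high as Spry1. The highest and the lowest member, Fgfr3 and Fgf2, differ 15.3-fold in level. The spread of a level over libraries was not analysed here, so neighbours in this order cannot be ranked with confidence.

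**Figure D1:**
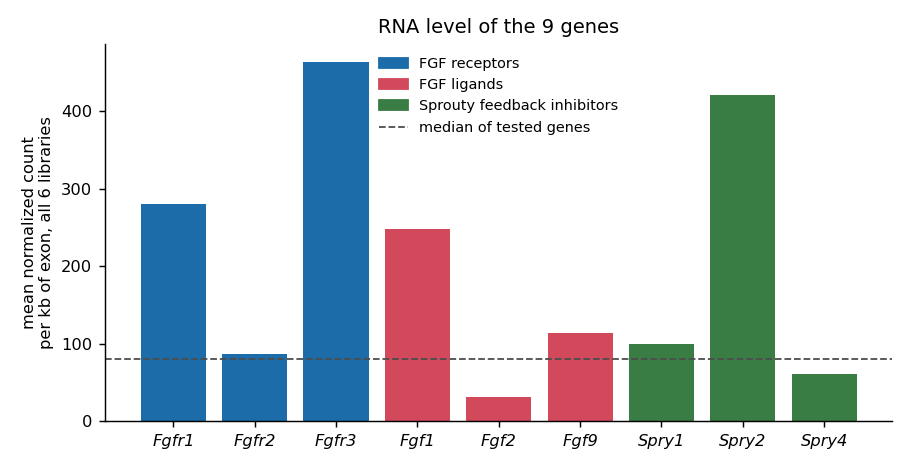
Mean normalized count per kilobase of exon over all 6 libraries for the 9 genes, coloured by role, with the median of tested genes as a dashed line. Fgfr3 (464) and Spry2 (421) stand highest, and Fgf2 (30.4) and Spry4 (60.2) lie under the median.

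The 3 receptors differed in the sign and size of their values. Fgfr3 (ENSMUSG00000054252) had a mean of 3320 normalized counts and an unshrunken log2 fold change of 0.71 ± 0.19 (SE, n = 3 per group). Its 95% interval runs from 0.34 to 1.07 on the log2 scale, or from 1.27-fold to 2.10-fold. In the authors' deposited table Fgfr3 has a log2 fold change of 0.59 ± 0.21 (deposited error) with adjusted p = 0.0456, computed over all tested genes with DESeq2 named in the submitters' notes. That p lies just inside 0.05 and ranks 57th of the 61 genes called, which are 0.328% of all tested genes (0.183% with a positive and 0.145% with a negative sign). Adjusted over every gene with a p-value the value is 0.0748, and with all z values divided by their SD it is 0.151, which ends the call in both cases.

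Fgfr3 was an abundant gene among those called. Of the 61 called genes 1 has a higher mean count, and 6 have a smaller unshrunken change. Among 3537 tested genes with mean counts from 1000 to 10000 and an unshrunken value, 24 genes (0.679%) have a larger absolute log2 fold change. The median standard error of these 3537 genes is 0.16, against 0.19 for Fgfr3.

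Fgfr2 (ENSMUSG00000030849), with a mean of 894 normalized counts, had the opposite sign, with a log2 fold change of -0.38 ± 0.20 (SE, n = 3 per group). Its 95% interval runs from -0.77 to 0.01, or from 0.587-fold to 1.01-fold, so it reaches no change at its upper end. The unadjusted p in the authors' deposited table is 0.0556 and the adjusted p is 0.747, so Fgfr2 did not pass. Fgfr1 (ENSMUSG00000031565) had -0.08 ± 0.15, with an interval from 0.770-fold to 1.16-fold (adjusted p = 0.976 in the authors' deposited table). Its standard error is the smallest of the 9 genes.

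**Figure D2:**
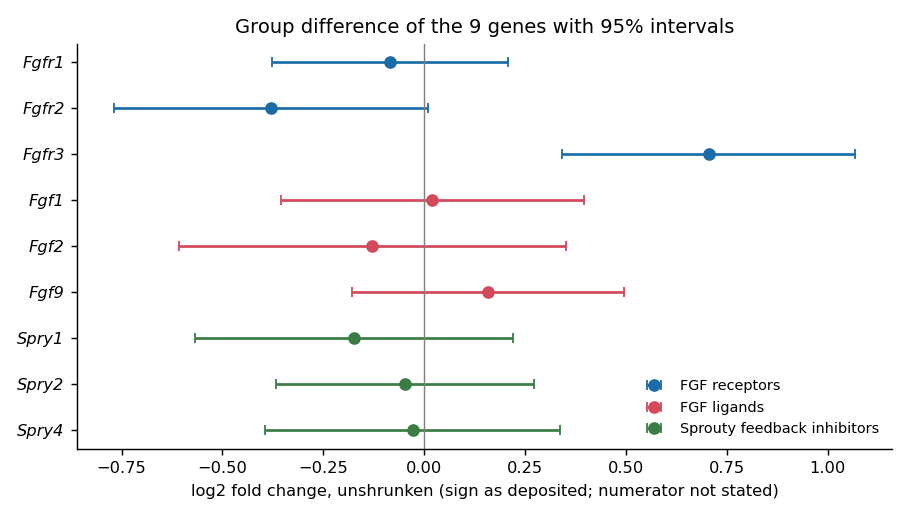
Unshrunken log2 fold change of the 9 genes (points) with 95% intervals (bars), by role, with the sign as deposited. The interval of Fgfr3 (0.34 to 1.07) lies above 0, that of Fgfr2 (-0.77 to 0.01) almost clears it, and the other 7 lie across 0.

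The ligands showed no called difference. Fgf9 (ENSMUSG00000021974) had the largest ligand value, 0.16 ± 0.17 on the log2 scale, with an interval from 0.884-fold to 1.41-fold. Fgf2 (ENSMUSG00000037225) had -0.13 ± 0.24, the widest error of the 9 genes, at the lowest mean of 206 normalized counts. Its interval runs from -0.61 to 0.35 on the log2 scale. Fgf1 (ENSMUSG00000036585) had 0.02 ± 0.19, with an interval from 0.782-fold to 1.32-fold. Their adjusted p-values in the authors' deposited table are 0.957 for Fgf9, 0.979 for Fgf2 and 0.997 for Fgf1.

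The Sprouty genes, read-outs of the pathway in many tissues, lay close to no change. Spry1 (ENSMUSG00000037211) had a log2 fold change of -0.17 ± 0.20, with an interval from 0.675-fold to 1.16-fold. Spry2 (ENSMUSG00000022114) had -0.05 ± 0.16, with an interval from 0.775-fold to 1.21-fold. Spry4 (ENSMUSG00000024427) had -0.03 ± 0.19, with an interval from 0.761-fold to 1.26-fold. All 3 values are negative, all 3 intervals span 0, and the adjusted p-values in the authors' deposited table are 0.963, 0.993 and 0.997. These intervals do not show that the Sprouty genes were alike in both groups.

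Over the 9 genes 3 values are positive and 6 negative, with a median log2 fold change of -0.05. The median is 0.01 over the 16236 tested genes with an unshrunken value. The median absolute change is 0.13, beside 0.19 over those 16236 genes. The standard errors run from 0.15 to 0.24 with a median of 0.19, beside 0.23 over the same 16236 genes. At an unadjusted p under 0.05 Fgfr3 is the 1 member, beside 6.81% of all tested genes (3.92% positive and 2.89% negative). Nothing is read from these counts, since the genes were chosen with the comparison known.

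**Figure D3:**
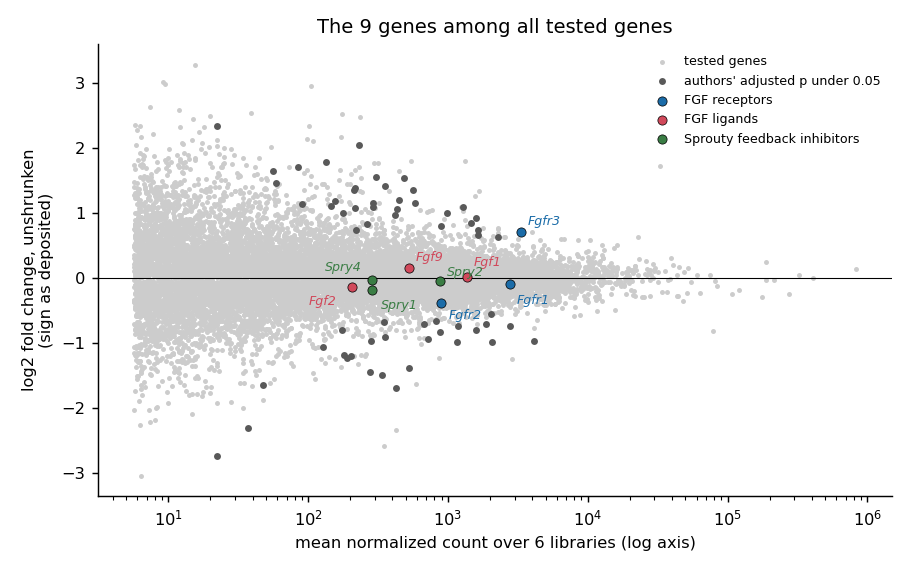
Unshrunken log2 fold change against mean normalized count (log axis) for tested genes with an unshrunken value (light points). Dark points are genes with an adjusted p under 0.05 in the authors' deposited table, and the 9 genes are coloured by role. Fgfr3, at a mean of 3320, lies at the upper edge of genes of its abundance, and the other 8 lie inside the cloud.

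Exons of other genes overlap those of 4 members with counts in the table, and no source used here says whether the counting used the strand. Fgf2 shares 640 bases of exon, 9.44% of its own, with Nudt6 on the opposite strand, known as the FGF antisense gene. Nudt6 had a mean of 125 normalized counts and a log2 fold change of -0.14 ± 0.28. Reads of the pair may not have been told apart, which was not tested. Fgfr3 shares 13.9% of its exon bases with G630022F23Rik on the opposite strand, which had a mean of 30.0 normalized counts and 1.35 ± 0.53, with the same sign as Fgfr3. Fgfr2 shares 3.04% with Ctbp2 on the same strand, a transcriptional corepressor gene with -0.21 ± 0.20. Spry1 shares 24.4% with Gm42922 on the opposite strand, which had a mean of 10.6 normalized counts. In the RefSeq annotation of GRCm38.p6, Fgf2 and Spry1 lie on the same chromosome with 1 protein-coding gene, Spata5, wholly between them, and Fgf1 and Spry4 also have 1 between them.

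The rest of the FGF pathway held no called gene. Of 91 further pathway genes listed, 83 were tested, and 0 of them have an adjusted p under 0.05 in the authors' deposited table, computed with DESeq2 per the submitters' notes, beside 0.328% of all tested genes. At an unadjusted p under 0.05 there are 12, 7 positive and 5 negative, or 14.5% of the 83, beside 6.81% of all tested genes (3.92% positive and 2.89% negative). Of the 83, 52 values are positive and 31 negative, beside 50.5% positive over all tested genes. The median log2 fold change is 0.10 over the 73 with an unshrunken value, beside 0.01 over all tested genes with such a value. Nothing is read from these counts, since the pathway lists were chosen with earlier results of these data known. Spry3 was not analysed here.

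Of the other receptors and co-receptors, 4 of 6 tested values were positive. Fgfrl1, a receptor-like protein without a kinase domain, had -0.63 ± 0.20, the smallest p of the 83 further genes and opposite in sign to Fgfr3 (adjusted p = 0.157 in the authors' deposited table). Flrt1, a membrane protein that interacts with FGF receptors, had 0.75 ± 0.26 (adjusted p = 0.288 in the authors' deposited table), and its relatives Flrt3 and Flrt2 had 0.25 ± 0.15 and 0.27 ± 0.17. Neither Fgfrl1 nor Flrt1 passed.

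Of 15 other secreted ligands 13 had counts and 9 were tested, 6 with a positive value. Fgf22, a presynaptic organizer in the hippocampus, had 0.98 ± 0.38 at a mean of 58.3 normalized counts, and Fgf10 had -0.32 ± 0.18. Among the 4 intracellular FGF homologous factors, which are not secreted and modulate sodium channels, Fgf12 had 0.43 ± 0.16 and Fgf14 had 0.34 ± 0.21. Their adjusted p-values in the authors' deposited table are 0.432 for Fgf22, 0.799 for Fgf10, 0.321 for Fgf12 and 0.843 for Fgf14, so none passed.

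FGF carriers and heparan sulfate proteoglycans were positive in 11 of 14 tested genes, with a median log2 fold change of 0.32 over the 13 with an unshrunken value and 0 genes called. Fgfbp1, a secreted carrier that releases FGFs from the matrix, had 2.25 ± 0.82 at a mean of 16.6 normalized counts (adjusted p = 0.322 in the authors' deposited table). Gpc6, a glypican, had 1.33 ± 0.64, and the syndecan Sdc2 had 0.32 ± 0.18. Enzymes that build or trim heparan sulfate were positive in 12 of 14 tested genes, with a median of 0.23 over the 11 with an unshrunken value and 0 called. Hs6st2, a 6-O-sulfotransferase, had 0.73 ± 0.31 (adjusted p = 0.524 in the authors' deposited table), and Ndst1, an N-deacetylase and sulfotransferase, had 0.36 ± 0.27.

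The intracellular relay from docking proteins to MAP kinases was split, 12 positive and 10 negative of 22, with a median of 0.03 over the 19 with an unshrunken value and 0 called. The docking proteins Gab1 and Gab2 had opposite signs, -0.43 ± 0.19 and 0.51 ± 0.24 (adjusted p = 0.577 and 0.645 in the authors' deposited table). Other feedback inhibitors were negative in 4 of 7 tested genes, with a median of -0.19 over the 5 with an unshrunken value. The phosphatases Dusp5 and Dusp6, which switch off the MAP kinase ERK, had -0.46 ± 0.17 and -0.36 ± 0.18 (adjusted p = 0.359 and 0.687 in the authors' deposited table). Genes induced by FGF were negative in 5 of 7, with a median of -0.33. The cell cycle gene Ccnd1 had -0.39 ± 0.17 and the immediate early gene Egr1 had -0.36 ± 0.29. Fos had -0.53 ± 0.65, the lowest value of this list. Of the ETS factors, Etv4 had -0.33 ± 0.25. Etv1 and Etv5, named outside the rule of smallest p, were positive at 0.12 ± 0.17 and 0.11 ± 0.16. None of these genes passed.

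**Figure D4:**
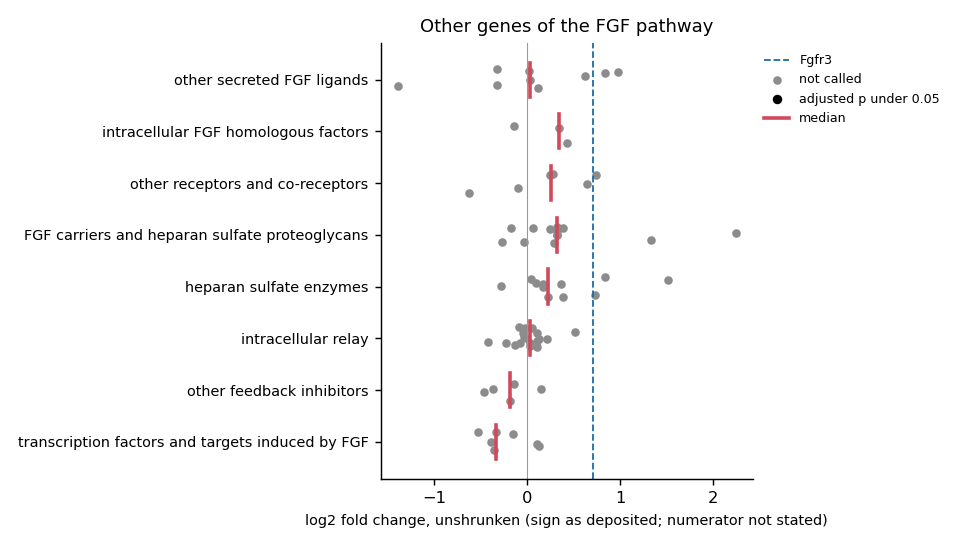
Unshrunken log2 fold changes of the other tested FGF pathway genes by list (points), with each list's median (red bar) and the value of Fgfr3, 0.71 (dashed line). Genes without an unshrunken value are not drawn. No pathway gene is called, and the drawn heparan sulfate genes lie mostly to the right of 0. The drawn feedback inhibitors and induced genes lie mostly to the left. Of 7 tested feedback inhibitors 5 are drawn, and over the 7 the signs are 4 negative and 3 positive.

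Astrocyte markers were split in sign. Of 12 astrocyte genes, 6 values were positive and 6 negative, with a median log2 fold change of -0.02 over the 10 with an unshrunken value and 0 called (1 positive and 2 negative at an unadjusted p under 0.05 in the authors' deposited table). Those 10 run from -0.53 to 0.18, all below the 0.71 of Fgfr3. The water channel gene Aqp4 had -0.53 ± 0.23 (adjusted p = 0.541 in the authors' deposited table). The gap junction gene Gjb6 had the sign of Fgfr3, with p = 0.0345 before and 0.649 after adjustment in the authors' deposited table. No unshrunken value was kept for it, so the range above leaves out this gene. Its z of 2.11 is the highest of the 12. The filament gene Gfap, outside the naming rule, was picked with its value already known and had -0.48 ± 0.24. Slc1a3, also outside the rule and picked with its value known, had 0.18 ± 0.24, the highest of the 10 values. The mean counts of the 12 run from 598 to 52369, and none is at 0. In bulk RNA fewer cells of a type and less RNA per cell cannot be told apart.

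Marker lists of several other cell types lay mostly on one side of 0. All 12 cell type lists were chosen with earlier results of these data known, so their counts are a description and not a test. Over all tested genes 50.5% of values are positive, 0.328% are called and 6.81% have an unadjusted p under 0.05. All 12 oligodendrocyte genes were negative, the sign of Fgfr2, with a median of -0.43 over the 9 with an unshrunken value and 1 called, the cytoskeletal gene Ermn at -0.98 ± 0.21 (adjusted p = 0.00282 in the authors' deposited table). All 10 microglia genes were negative, with a median of -0.52 and 2 called. Meningeal fibroblast genes were positive in 11 of 12, with a median of 1.06 and 5 called, and cortical layer genes were positive in 10 of 11, with a median of 0.40 and 3 called. Choroid plexus genes were positive in 9 of 10, with a median of 1.54 over the 9 with an unshrunken value and 0 called, also at an unadjusted p. The co-receptor gene Kl, a member of that list picked with its value known, had 0.64 ± 0.63. Of 10 hippocampal neuron genes 8 were negative, with 0 called and 5 at an unadjusted p under 0.05. Their median was -0.31 over the 8 with an unshrunken value, and their mean counts run from 452 to 5804. The median mean count is 239 for choroid plexus genes, 422 for cortical layer genes and 2325 for hippocampal neuron genes. The highest is 33085, 1165 and 5804 in the same order. Whether such counts tell the tissue was not tested. The part of these cell types in the values of Fgfr3, Fgfr2 and the other genes was not tested.

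**Figure D5:**
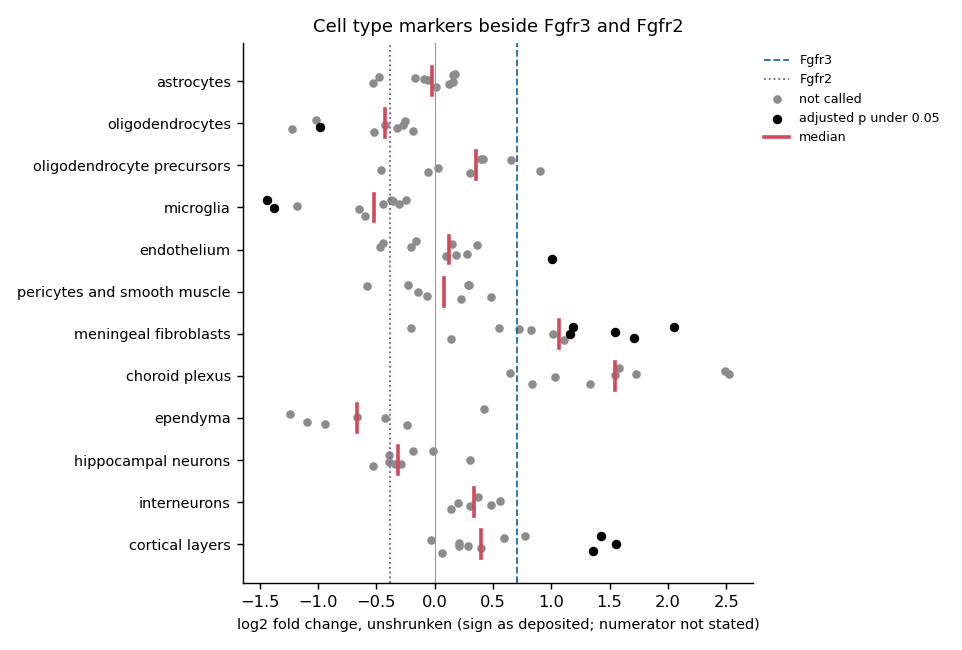
Unshrunken log2 fold changes of cell type markers by list (points, black where the adjusted p is under 0.05 in the authors' deposited table), with each list's median (red bar) and the values of Fgfr3, 0.71 (dashed line), and Fgfr2, -0.38 (dotted line). Astrocyte genes with an unshrunken value, which leave out Gjb6, lie around 0 and left of Fgfr3, and oligodendrocyte genes lie on the side of Fgfr2.

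Oligodendrocyte precursor genes were positive in 6 of 8 (median 0.35), interneuron genes in 7 of 8 (median 0.34 over the 6 with an unshrunken value), endothelial genes in 6 of 10 (median 0.12, with the lipid transporter gene Mfsd2a called at 1.01 ± 0.25) and pericyte and smooth muscle genes in 4 of 8 (median 0.08). Ependymal genes were negative in 6 of 7 (median -0.67). Apart from Mfsd2a, 0 genes of these 5 lists are called by DESeq2 in the authors' deposited table. At an unadjusted p under 0.05 there are 3, 3, 2 (with Mfsd2a counted), 1 and 4 in the order given.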

How the data were processed

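Stranded mRNA libraries of 6 wild-type hippocampus samples were read in pairs of 150 bp, per the labels' protocols. Trimming used fastp 0.20.0, alignment HISAT2 2.1.0 and counting FeatureCounts 2.0.1, per the labels' protocols, and the submitters' processing notes name DESeq2 1.28.0. For the genome build, the annotation and the strand setting: not given in the sources used here.

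The authors deposited 1 comparison in 2 sheets with the same values, of which 1 was used. Its mean count is a signal that the authors made by averaging size-factor normalized counts over libraries, per the file headers. The log2 fold change and error deposited by the authors are shrunken toward 0, judging by the values. Both the raw and the adjusted p-value were deposited by the authors, the adjusted one only for genes with a mean above 5.67. Library totals were not analysed here. The mean normalized counts total 25011655, with a median of 334 per tested gene.

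The unshrunken log2 fold change and standard error were back-calculated by taking the deposited value as the peak of a normal likelihood times a Cauchy prior, with the p-value read as that of a Wald test. The prior's scale, 0.0357, came from the deposited error of 5216 genes with a mean under 0.5. The deposited error gives a second estimate of the standard error. A value was kept where both estimates lie within 10% of each other, which holds for 16236 of 18603 tested genes (87.3%) and for all 9 members, within 2.38%. The median ratio of the estimates is 1.00. The calculation was tested on simulated counts shrunken with the same prior and scale. Such a test cannot show whether the deposited values were made that way. The 95% intervals assume a normal error.

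The quasi-likelihood test planned for counts gave way to its planned fallback, the authors' adjusted p at 0.05. The members and all lists, 8 of pathway genes and 12 of cell types, were chosen with earlier results of these data known. Named are the members and, by smallest p, up to 4 genes per pathway list and 2 per cell type list. Gfap, Slc1a3, Kl, Etv1 and Etv5 were named outside this rule. Gene lengths came from GENCODE M21, matched by ID for 55144 genes. The software was Python 3.11.15 with scipy 1.17.1, numpy 2.4.6, matplotlib 3.10.9 and pandas 2.3.3.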

Additional observations from a re-analysis of the deposited data

How the results depend on the processing

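The call of Fgfr3 rests on the adjustment. Its adjusted p is 0.0748 over every gene with a p-value and 0.151 with z divided by its SD of 1.09, so that 0 members are called in both cases, while over the 15213 genes with a mean of at least 25.0 normalized counts (1 CPM) it is 0.0387. Of 32 adjusted p-values of the other 8 members under the 4 alternatives, 32 kept their side of the threshold, the lowest being 0.684. No stability is read from this. The threshold of 0.1 reuses the deposited values, the lowest of which is 0.747, and dividing z by its SD can only raise them. With a threshold of 0.1 the number of called genes is 116, of which 61 are positive and 55 negative, and with z divided by its SD it is 19, of which 12 are positive and 7 negative. The number of other pathway genes called is 0 under each of the 5 alternatives run. With z divided by its SD, or with a minimum of 1.5-fold, no call can be added, so that 0 was fixed in advance. Unshrunken, Fgfr2 is -0.38 instead of -0.01, because the deposited value is shrunken. Leaving out each library, other normalizations, filters and count models were not run, since they take values of single libraries. No paired analysis was possible because the values used here carry no library and the labels give no number shared by the groups.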
